A study of Arabidopsis with 8 samples.

Results

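The response of nNOS transgenic leaves to drought was described from the 2 arrays of nNOS drought and the 2 arrays of nNOS control, 4 of the 8 Affymetrix ATH1 arrays of the study. Every probe set that is not an Affymetrix control was included, 22746 of 22810 probe sets, and the response of a probe set was its mean log2 signal on the drought arrays minus its mean on the control arrays. The nNOS plants were *Arabidopsis thaliana* Col-0 carrying the rat gene for neuronal nitric oxide synthase (nNOS) behind the cauliflower mosaic virus 35S promoter, which is active in most plant tissues. nNOS drought plants were 2 weeks old when watering stopped, and per the labels their leaves were taken after 14 d without water, whereas the study's methods state a shorter time. nNOS control plants were of the same age and genotype and were kept well watered. WT drought and WT control were Col-0 plants without the transgene under the same 2 treatments, with 2 arrays each. Leaves of 20 or more seedlings made up each sample. The design text and the study's methods state that RNA of lines nNOS-2 and nNOS-25 was pooled before labelling, whereas the label on extraction names nNOS-25 alone, so that the arrays cannot separate the lines. The sources do not say whether the 2 samples of a group were grown apart, and the p-values therefore measure only the spread between these samples. Because whole leaves were sampled, fewer cells of a type and less RNA per cell cannot be told apart.

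Leaves that lose water change the transcripts of protective proteins, transporters, hormone pathways and growth genes, and the hormone abscisic acid carries much of this signal. Nitric oxide is a short-lived signalling molecule in plants that takes part in stomatal closure, iron handling and the control of mitochondrial respiration. The plant hormones auxin and brassinosteroid promote cell growth, and many of their target transcripts are short-lived.

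The 4 arrays of interest had median log2 signals between 4.92 and 4.97, and the SD of a probe set over the arrays of its group had a median of 0.0829 in nNOS drought and 0.119 in nNOS control. The label of leaf tissue was checked with marker genes. RCA, the Rubisco activase of mesophyll cells, had signals of 13.1 and 13.1 on the nNOS drought arrays, against 13.1 and 12.8 on the nNOS control arrays, whereas the measured tapetum and pollen genes lay below 5 on all 4 arrays. Of the 4 measured root genes, 3 lay below 4 and PYK10 lay between 7.40 and 7.55.

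The nNOS control arrays stood apart in the control RNAs that Affymetrix supplies. Poly-A control RNAs are bacterial transcripts added to each RNA sample before labelling, so that they report on the preparation and not on the plant. Their 27 probe sets averaged 6.03 and 6.17 in log2 signal on the nNOS drought arrays, against 8.24 and 8.63 on the nNOS control arrays. They had 5.67 and 5.61 on the WT drought arrays, against 6.37 and 6.37 on the WT control arrays. The difference was thus -2.34 in nNOS transgenic plants, against -0.73 in the WT. The 3 probe sets of Trp lay near the floor of the signal, and the other 24 had log2 fold changes of -3.07 to -2.24 in nNOS transgenic plants, all past the thresholds for a call. Hybridization controls, which are added after labelling, had a mean of 9.07 and 9.13 on the nNOS drought arrays, against 9.93 and 10.3 on the nNOS control arrays. Their difference of -1.03 was smaller than that of the poly-A controls, and 11 of 18 probe sets were called lower. The 3′ minus 5′ log2 difference of GAPDH, averaged over both designs on the array and larger where RNA is less intact, was 0.097 and 0.282 on the nNOS drought arrays, against 0.374 and 0.68 on the nNOS control arrays. It was 0.108 and 0.191 on the WT drought arrays, against 0.594 and 0.485 on the WT control arrays, so that the drought arrays were lower in both genotypes, whereas the same measure of actin overlapped between nNOS drought and nNOS control. The part of these differences in the results below was not tested.

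**Figure D1:**
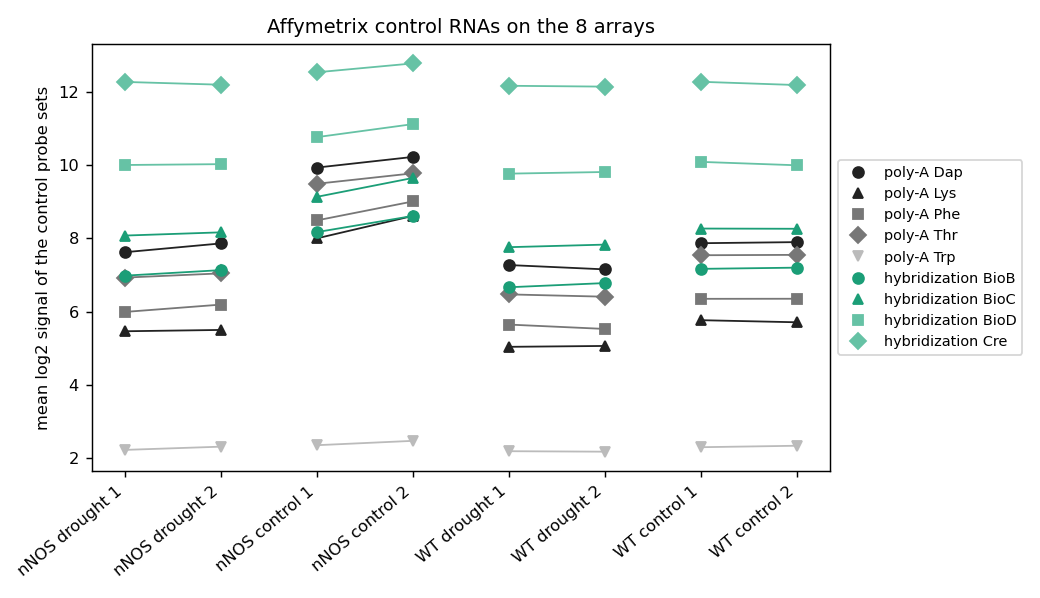
Mean log2 signal (vertical axis) of the probe sets of each poly-A control RNA (grey and black) and each hybridization control RNA (green) on the 8 arrays (horizontal axis), with a line joining the 2 arrays of a group. The poly-A controls other than Trp were highest on the nNOS control arrays, where the mean over all 27 probe sets was 8.24 and 8.63.

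After drought, 447 probe sets were called in nNOS transgenic plants, 1.97% of those tested, where a call needed a limma adjusted p of 0.05 or less and a change in mean log2 signal of 1 or more in size. Of these, 184 were higher (0.809% of those tested) and 263 lower (1.16%) on the nNOS drought arrays. Most changes were small, since 147 rises and 206 falls were between 1 and 1.5 on the log2 scale, and only 3 rises and 4 falls reached 3. The highest adjusted p among the probe sets past the fold threshold was 0.00752, so that the fold threshold set the number of calls. By the adjusted p alone, 5654 probe sets passed (24.9%), with 3191 higher (14.0%) and 2463 lower (10.8%), and the median log2 fold change over all probe sets was -0.017. The shares of 14.0% and 10.8% stand beside each count below of list members that were higher or lower in nNOS transgenic plants. The split of the calls depended on the scaling of the arrays, with 158 higher and 299 lower after quantile normalization, 161 and 295 with the arrays set to a common median, and 132 and 358 after cyclic loess normalization. Without nNOS control replicate 1, the count was 678, with 319 higher and 359 lower.

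**Figure D2:**
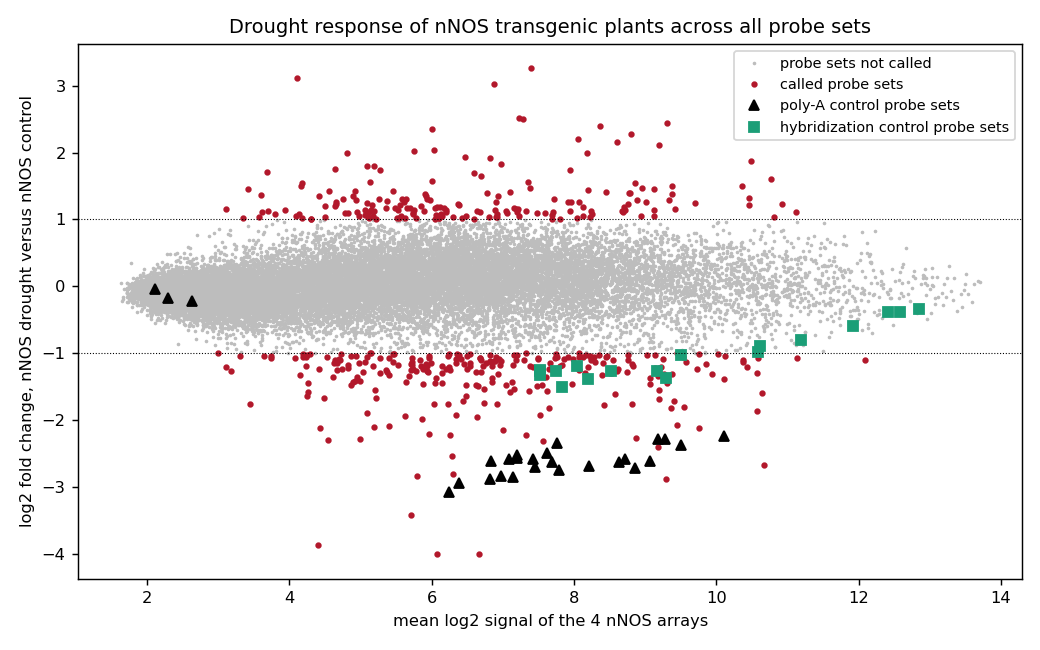
Log2 fold change of nNOS drought versus nNOS control (vertical axis) against the mean log2 signal of the 4 nNOS arrays (horizontal axis) for all probe sets, with called probe sets in red, and with dotted lines at the fold threshold. The poly-A controls (black triangles) lie below the main cloud, with values of -3.07 to -2.24 apart from the 3 of Trp, and the hybridization controls (green squares) lie between -1.51 and -0.34.

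Genes of zinc uptake held 4 of the 9 largest rises. ZIP9, a zinc transporter, had signals of 9.06 and 8.98 in nNOS drought, against 5.65 and 5.86 in nNOS control, and rose by 3.26 on the log2 scale (SE 0.12, limma adjusted p = 1.13e-07). IRT3, a transporter of zinc and iron, had 10.5 and 10.6 in nNOS drought, against 8.17 and 8.01 in nNOS control, and rose by 2.44. NAS2, which makes the metal chelator nicotianamine, had 8.65 and 8.42 in nNOS drought, against 5.98 and 6.08 in nNOS control, and rose by 2.50. In each of these genes the nNOS drought arrays lay far above the nNOS control arrays, and the WT arrays showed the same order. ZIP4, NAS3, ZIP3 and ZIP5 rose by 2.27, 1.99, 1.80 and 1.26. The 7 rises were in genes of the list of zinc uptake and nicotianamine synthesis that were called, 6 of which could be named only from the study's list of called genes. Of the 3 genes that the platform annotation names, ZIP9 and bZIP19, a regulator of the response to zinc deficiency (0.42), were higher, and ZIP6 had -0.05 without passing the test. None of the 7 responses differed from that of the WT at a limma adjusted p of at most 0.05, and 1 did at an unadjusted p under 0.05.

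Iron genes moved in both directions. BHLH101, a transcription factor induced when iron is short, had 2.52 and 2.41 in nNOS drought, against 6.34 and 6.33 in nNOS control and fell by 3.87 on the log2 scale (SE 0.11, limma adjusted p = 4.36e-08). Its drought signal lay at the floor of the array, so that the size of the fall is uncertain. AT1G47400, a gene without an assigned function in the annotation used, had 4.06 and 4.09 in nNOS drought, against 7.88 and 8.29 in nNOS control, and fell by 4.01. FRO3, an iron reductase, OPT3, which moves iron in the phloem, BTS, which restrains the iron deficiency response, and ORG1 fell by 1.65, 1.32, 1.12 and 1.02. The regulator PYE had -0.67 and passed the adjusted p but not the fold threshold, and AT3G13610 had 0.44. Of the 4 measured genes of this list, 1 was higher and 3 were lower, with a median log2 fold change of -2.27. Ferritins store iron, and FER1 and FER4 were called higher, whereas the others of the 4 listed genes could not be counted, since the platform annotation names none of them. FER1 had 11.5 and 11.4 in nNOS drought, against 9.52 and 9.59 in nNOS control, and rose by 1.87, and FER4 rose by 1.13. FSD1, an iron superoxide dismutase, had 11.4 and 11.7 in nNOS drought, against 10.3 and 10.3 in nNOS control, and rose by 1.23. CCS, the only measured gene of the list of superoxide dismutases and copper chaperones, had -0.49, against -1.48 in the WT. In nNOS transgenic plants CCS passed the adjusted p but not the fold threshold. FRO3, OPT3, BTS, ORG1 and FSD1 could be named only from the study's list of called genes.

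**Figure D3:**
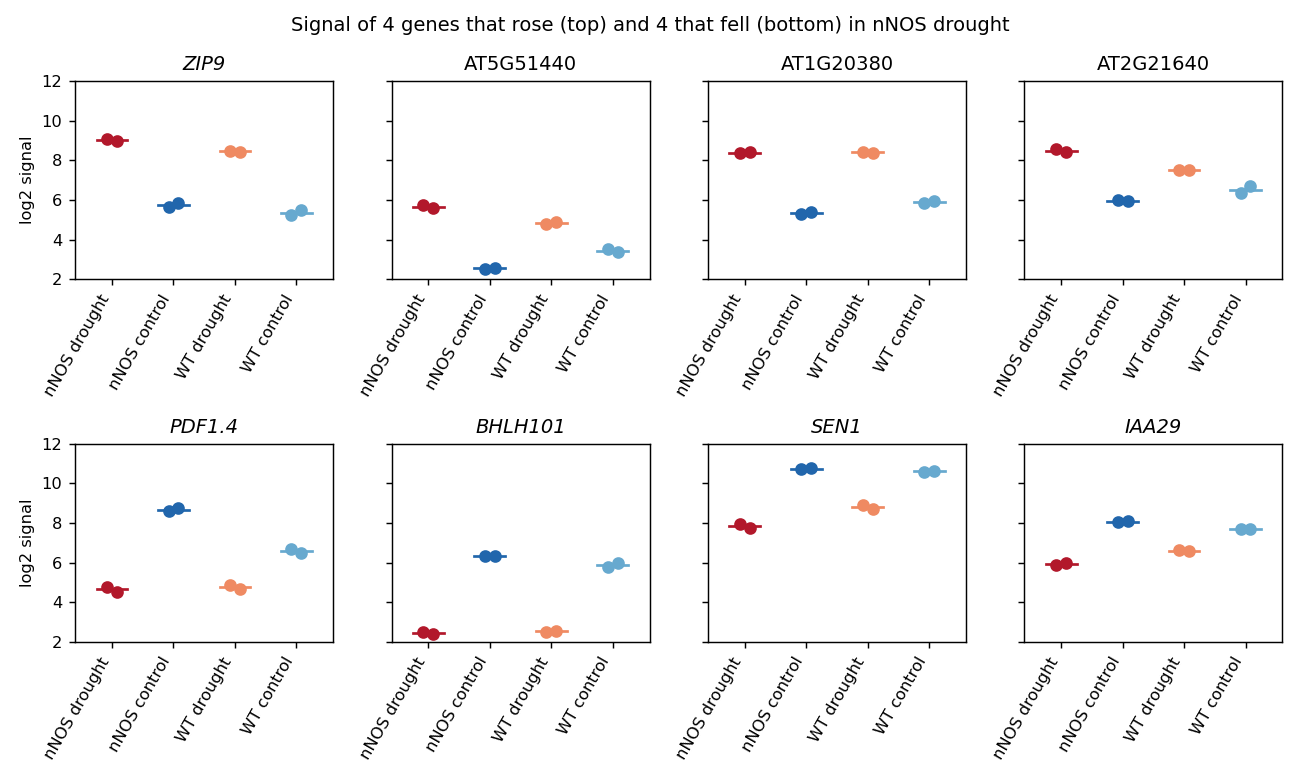
Log2 signal (vertical axis) of 4 genes that rose and 4 that fell in nNOS drought versus nNOS control, in the 4 groups (horizontal axis), with a point for each array and a line at the mean of the 2 arrays. ZIP9 and AT1G20380 had close values in both genotypes, whereas AT5G51440 and PDF1.4 differed between nNOS control and WT control.

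Transcripts that respond to stress in mitochondria rose together. AT2G21640, annotated as a marker of the oxidative stress response, had 8.55 and 8.42 in nNOS drought, against 5.98 and 5.96 in nNOS control, and rose by 2.51 (SE 0.13, limma adjusted p = 8.22e-07). AOX1A, the alternative oxidase that takes electrons past part of the respiratory chain, had 8.86 and 8.98 in nNOS drought, against 7.54 and 7.42 in nNOS control, and rose by 1.44. AT5G09570, of the CHCH domain family, had 7.74 and 7.82 in nNOS drought, against 5.69 and 6.02 in nNOS control, and rose by 1.92. These 3 genes were called, and each also rose in the WT, by 0.99, 0.53 and 1.04 in that order. AOX1A could be named only from the study's list of called genes. The alternative NADH dehydrogenase genes NDB2, NDB3 and NDB4 had 0.92, 0.69 and 0.65 and passed the adjusted p. Of the 6 measured genes of this list, 5 were higher and none was lower, with a median of 0.80, against 0.33 in the WT, and AT5G64400 had -0.12. None was lower by limma at an unadjusted p under 0.05.

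Several heat shock genes rose as well. AT5G51440, a small heat shock protein of the mitochondrion, had 5.73 and 5.60 in nNOS drought, against 2.53 and 2.57 in nNOS control, and rose by 3.12 (SE 0.11, limma adjusted p = 6.62e-08). The control signal lay at the floor, so that this size is uncertain too. HSFA2, a heat stress transcription factor, had 5.90 and 5.72 in nNOS drought, against 3.90 and 3.73 in nNOS control, and rose by 2.00. MBF1C, a coactivator of the heat response, HSP101 and HSP70, which refold or hold damaged proteins, and AT5G48570 and AT2G20560 rose by 1.47, 1.31, 1.30, 1.15 and 1.03. HSFA2, MBF1C, HSP101 and HSP70 could be named only from the study's list of called genes. Of the 8 measured genes of the list, 4 were higher and none was lower, and those that did not pass the test, among them ATHSP22.0 (-0.10) and AT1G53540 (-0.08), had signals below 5 on all 4 arrays. AT2G29500, AT2G20560 and AT5G48570, which passed, also had signals below 5 on all 4 arrays, so that the sizes of their rises are uncertain. By limma at an unadjusted p under 0.05 as well, none of the measured genes was lower.

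Other leading rises came from several classes. AT1G20380, a putative prolyl oligopeptidase, had 8.36 and 8.41 in nNOS drought, against 5.30 and 5.42 in nNOS control, and rose by 3.03. PAP27, a purple acid phosphatase, rose by 2.40, and the transporters of the MATE family AT2G04050, AT2G04070 and AT1G61890, which export small organic molecules, rose by 2.35, 2.03 and 1.23. The nNOS drought arrays disagreed on AT2G04050, with 7.63 and 6.72, but both lay above the nNOS control arrays with 4.72 and 4.94. SAG12, a cysteine protease of senescing leaves, had 5.65 and 5.37 in nNOS drought, against 3.59 and 3.93 in nNOS control, and rose by 1.75. SEN1, a gene induced by darkness and senescence, had 7.94 and 7.74 in nNOS drought, against 10.7 and 10.8 in nNOS control, and fell by 2.89. SAG12 and SEN1 thus moved in opposite directions. Of the 2 measured genes of the list of senescence and darkness markers, BETA-VPE was higher by the adjusted p (0.72). AT1G66330 had -0.02 without passing the test. MYB47 and DREB19, transcription factor genes, rose by 1.93 and 1.70, and the starch phosphatase gene SEX4 and its relative LSF2 by 1.07 and 1.12.

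Plastid-encoded genes were mostly higher. The chloroplast genome encodes subunits of the photosynthetic complexes, of the NADH dehydrogenase-like (NDH) complex and of the plastid ribosome and RNA polymerase, and most of its transcripts carry no long poly-A tail. Of the 69 genes, 39 were higher and 9 lower at a limma adjusted p of at most 0.05, which 14.0% and 10.8% of all probe sets passed in these directions. Of the 69, 19 were called higher and 4 lower, against 0.809% and 1.16% of all probe sets. ndhK, of the NDH complex, had 9.56 and 9.80 in nNOS drought, against 7.77 and 7.28 in nNOS control, and rose by 2.16. cemA, of the chloroplast envelope, had 8.97 and 9.34 in nNOS drought, against 7.02 and 6.88 in nNOS control, and rose by 2.21. rps2, of the plastid ribosome, had 6.96 and 7.12 in nNOS drought, against 4.97 and 5.04 in nNOS control, and rose by 2.03. In all 3 genes the nNOS control arrays were the low ones, since the WT control arrays had 9.83 and 9.54, 8.41 and 8.76, and 6.51 and 6.55. The median over the 69 genes was 0.50 in nNOS transgenic plants, against 0.04 in the WT, and 7 were higher and 5 lower in the WT by the adjusted p, which 5.97% and 4.92% of all probe sets passed there in these directions. The responses differed between genotypes for 23 of the 69, of which 22 were higher in nNOS transgenic plants, a direction in which 1.89% of all probe sets passed. The 4 that were called lower were psaJ (-1.71), psbN (-1.24), petN (-1.03) and ndhD (-1.02), and the 2 nNOS control arrays disagreed on psaJ, with 9.48 and 11.0. Across the 69 genes, which are not independent replicates, the length of the gene and the log2 fold change had a Spearman rho of 0.43, against 0.22 in the WT. Of the 9 measured nuclear genes for photosynthetic light harvesting, electron transport and carbon fixation, 3 were higher and none was lower by limma (4 and none at an unadjusted p under 0.05), with a median of 0.13, and the largest change was that of LHCB4.3 (0.88), an antenna protein gene.

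Genes of small secreted proteins and of defence held 2 of the 4 falls that reached 3 on the log2 scale. PDF1.4, of the defensin family, had 4.78 and 4.53 in nNOS drought, against 8.60 and 8.74 in nNOS control, and fell by 4.01 (SE 0.13, limma adjusted p = 6.34e-08). AT4G12500, which encodes a lipid transfer-like protein of the EARLI1 family, had 4.02 and 3.98 in nNOS drought, against 7.37 and 7.47 in nNOS control, and fell by 3.42. AT4G12490, EARLI1, AT4G22470 and AZI1, of the same family, had log2 fold changes of -2.26, -2.21, -1.67 and -1.55, and the 4 genes named by the platform annotation, AT4G12500, AT4G12490, AT4G22470 and AT2G45180 (-0.44), were all lower, with a median of -1.97, against -0.75 in the WT. In PDF1.4 and AT4G12500 the WT drought arrays, with 4.90 and 4.70 and with 4.18 and 4.205, reached nearly the same level as the nNOS drought arrays, whereas the WT control arrays, with 6.69 and 6.48 and with 5.88 and 5.73, lay below the nNOS control arrays. AT2G43620, a putative chitinase, AT1G66100, a putative thionin, and THI2.2, a thionin, fell by 2.84, 1.87 and 1.23. Other defence genes rose. PDF1.2, a plant defensin, had 9.66 and 9.60 in nNOS drought, against 7.92 and 8.25 in nNOS control, and rose by 1.54. BGL2 and PR5, pathogenesis-related proteins of the salicylic acid response, HCHIB, a basic chitinase, and PAD3, which makes the antimicrobial compound camalexin, rose by 1.25, 1.22, 1.17 and 1.27. BGL2, PR5, HCHIB and PAD3 could be named only from the study's list of called genes. Of the 9 measured genes of the list of pathogenesis-related and defensin genes, 2 were higher and 4 lower, with a median of -0.19.

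Most called genes of the auxin class were lower. Of the probe sets called, the study's functional classes place 20 in auxin metabolism, of which 19 were lower, among them 12 genes of the SAUR list, a family of short and rapidly induced auxin transcripts. SAUR23 had 8.42 and 8.48 in nNOS drought, against 10.1 and 10.4 in nNOS control, and fell by 1.82. SAUR63 had 6.72 and 6.76 in nNOS drought, against 8.43 and 8.68 in nNOS control, and fell by 1.81. In both the WT control arrays lay between the nNOS groups, with 9.09 and 9.05 and with 7.39 and 7.59. IAA29, a repressor of auxin signalling, had 5.87 and 5.99 in nNOS drought, against 8.05 and 8.10 in nNOS control, and fell by 2.15, and IAA5, IAA1, IAA2 and GH3.3 fell by 1.27, 1.19, 1.05 and 1.00. Of the 7 measured AUX/IAA and GH3 genes, 1 was higher (IAA18, with 0.71) and 3 were lower, with a median of -0.30. HB-2 and HFR1, transcription factors of the shade response, fell by 1.31 and 1.23. IAA5, IAA1, IAA2, HB-2 and HFR1 could be named only from the study's list of called genes. No SAUR gene was named by the platform annotation, so that those outside the study's list of called genes could not be counted. Expansins and xyloglucan-modifying XTH enzymes loosen the cell wall. Of 15 measured genes, none was higher and 4 were lower by limma (1 and 5 at an unadjusted p under 0.05), the largest falls among them being XTH19 (-0.67) and EXPA7 (-0.61), with a median of -0.08.

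Genes of hormone and stress signalling were called in both directions. PYL5, an abscisic acid receptor, had 7.96 and 8.01 in nNOS drought, against 10.3 and 10.5 in nNOS control, and fell by 2.40, and PYL6 fell by 1.05. None of the 14 listed receptor genes was named by the platform annotation, so that receptors outside the study's list of called genes could not be counted. The study also reports a fall of the receptor PYL4, short of the fold threshold. Of the 7 measured genes that abscisic acid or dehydration induces in *Arabidopsis*, 2 were higher, COR15A (0.64) and COR15B (0.66), which encode chloroplast proteins that protect membranes, and 2 were lower, LEA4-5 (-1.07) and DI21 (-0.48). COR47 and LTI30, dehydrins, had -0.24 and -0.06 without passing the test. CBF1, a transcription factor of the cold response, had 4.96 and 4.79 in nNOS drought, against 6.78 and 6.94 in nNOS control, and fell by 1.98, and CBF2 fell by 1.93. ERF4, a repressor of the ethylene response, and the ubiquitin ligase genes CNI1 and RHA3B fell by 1.37, 1.23 and 1.05. ERF2 rose by 1.25. These 6 genes could be named only from the study's list of called genes. Of the 8 measured genes of the list of rapid stress response regulators, 1 was higher and 2 were lower, with a median of -0.03, and STZ, CML38, GRX480 and WRKY6 had 0.15, 0.18, -0.11 and -0.39 without passing the test. Of the jasmonate pathway, JAZ6 and JAZ7, which repress the response, and CYP94C1, which breaks down the active hormone, rose by 1.12, 1.14 and 1.38. JAZ7 had 9.33 and 9.23 in nNOS drought, against 8.10 and 8.19 in nNOS control, and no jasmonate gene was called lower. Jasmonate genes too could be named only from the study's list of called genes.

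None of the 7 measured reference genes, used elsewhere to normalize transcript levels, passed the limma adjusted p (1 passed an unadjusted p under 0.05), and their median was 0.11. Other lists moved by small amounts. Of 4 antioxidant enzyme genes, 3 were higher, with SAPX, a stromal ascorbate peroxidase, at 0.90. Of 18 measured glutaredoxin genes of the CC type, small redox proteins, 2 were higher and 10 lower, of which AT4G15690 (-1.27) and AT4G15700 (-1.06) were called, with a median of -0.44 in nNOS transgenic plants, against -0.62 in the WT. The largest functional class among the calls held 112 probe sets of unknown function, of which 27 were higher and 85 lower, and AT3G56360, AT5G05250 and AT5G51390 fell there by 2.68, 2.81 and 2.54.

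In the WT, 154 probe sets were called after drought, 0.677% of those tested, with 75 higher (0.33%) and 79 lower (0.347%). The nNOS and WT responses share no arrays. Of the 184 rises in nNOS transgenic plants, 173 had the same sign in the WT and 106 passed the adjusted p there in the same direction. Of the 263 falls, 251 had the same sign and 151 passed. Of all probe sets, 5.97% passed higher and 4.92% lower in the WT, and the share with the same sign was not counted. The rises had a median log2 fold change of 1.19 in nNOS transgenic plants, against 0.53 in the WT. The falls had -1.21, against -0.52 in the WT. The medians were thus larger in size in nNOS transgenic plants, which chose the rises and falls. The difference between the responses passed the adjusted p for 216 of the 447 (48.3%), against 3.64% of all probe sets, and a contrast that shares the nNOS arrays with the choice of the probe sets is not independent of it. The nNOS response was the larger one in 86 rises and 129 falls, and the smaller one in 1 rise, FSD1, which rose by 2.13 in the WT. Over all probe sets, the difference was called for 170 (0.747%), of which 71 were higher (0.312%) and 99 lower (0.435%) in nNOS transgenic plants, and the split was 52 and 124 after cyclic loess normalization. The count was 287 without nNOS control replicate 1, 110 without WT control replicate 1, 99 without WT drought replicate 1 and 88 without WT drought replicate 2. The largest differences in each direction among the 447 were -2.23 for PDF1.4 and 1.9 for ndhK.

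**Figure D4:**
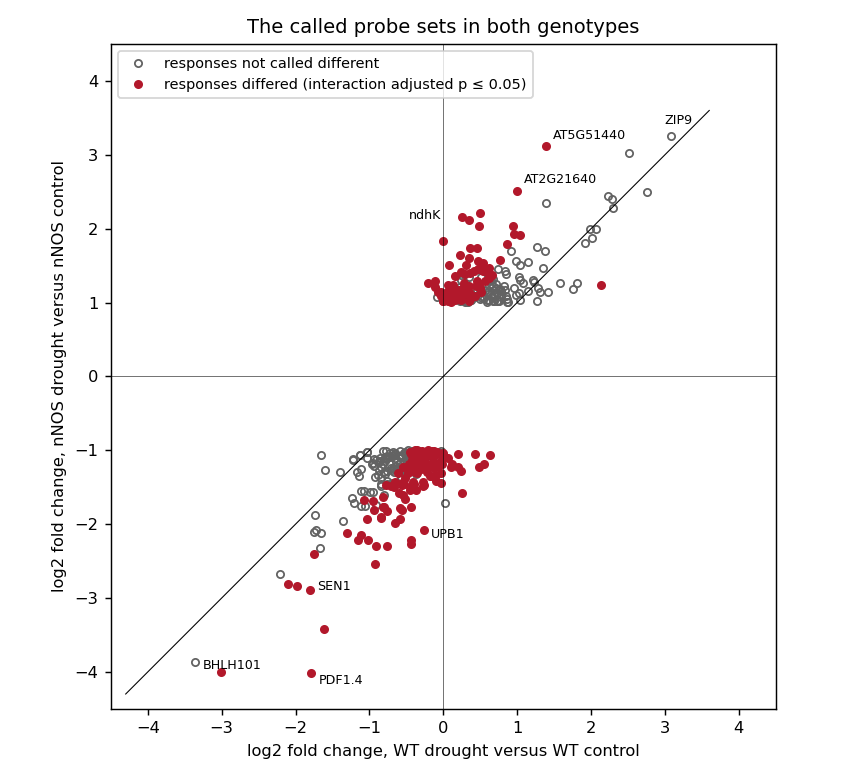
Log2 fold change after drought of the 447 called probe sets in nNOS transgenic plants (vertical axis) and in the WT (horizontal axis), filled in red where the responses differed at a limma adjusted p of at most 0.05, with the diagonal of equal responses. Most of the 216 red points lie farther from 0 on the vertical axis than on the horizontal axis, which the choice of the probe sets by the nNOS response favours.

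Where the responses differed, the genotypes differed mainly in watered plants. Both nNOS control arrays lay below the other 6 arrays in 150 of the 184 rises and above them in 235 of the 263 falls, against 18.5% and 17.2% of all probe sets. The 4 drought arrays lay above the 4 control arrays in 140 of the rises and below them in 185 of the falls, against 8.94% and 7.47% of all probe sets. The rises and falls were chosen by the difference between the nNOS groups, which favours such counts, so that they are a description and are no test. The mean of the WT control arrays was nearer to the mean of nNOS drought than to that of nNOS control in 103 of the rises and 175 of the falls. The share of all probe sets with this order was not counted. For the 86 rises in which the responses differed, the median difference between nNOS control and WT control was -0.998, and that between nNOS drought and WT drought was -0.01. For the 129 falls these medians were 1.04 and 0.04. The difference was larger between the control groups in 75 of the 86 rises and 119 of the 129 falls. For this too the share of all probe sets was not counted, so that these counts are a description only. The poly-A controls set the same 2 arrays apart, with a mean difference of 2.07 between nNOS control and WT control, and their part in these counts was not tested.

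In 11 of the 86 rises and 10 of the 129 falls the genotypes differed more after drought than before it. These genes, singled out after their values were seen, were AT5G09570, AT2G21640, CYP94C1, JAZ7, AT1G24095, AT2G04070, MLP34, AT1G61890, GAD, AT3G53980 and CAX3 among the rises. CYP94C1 had 6.57 and 6.61 in nNOS drought, against 5.66 and 5.68 in WT drought, while nNOS control had 5.24 and 5.19, against 5.10 and 4.93 in WT control. The difference between the genotypes was thus 0.92 after drought and 0.20 in watered plants. For AT5G09570 it was 1.03 after drought and 0.15 in watered plants, and for JAZ7 0.82 and 0.035. GAD encodes a glutamate decarboxylase, which makes the stress metabolite GABA, and it differed by 0.55 after drought and -0.38 in watered plants. Only the sizes of the differences were compared, so that genes with close sizes of opposite sign were included. CAX3 differed by 0.391 after drought and -0.385 in watered plants. Among the falls were IAA2, AT5G64190, AT1G47400, AT1G64490, HBI1, IAA29, MYB96, SEN1, BGAL4 and 1 probe set of several genes. AT5G64190 too had close sizes of opposite sign, with -0.968 after drought and 0.87 in watered plants. MYB96, a regulator of wax synthesis, had 5.55 and 5.55 in nNOS drought, against 6.53 and 6.28 in WT drought, while nNOS control had 6.74 and 6.76 and WT control had a mean lower by 0.15. BGAL4, a beta-galactosidase, had 6.38 and 6.24 in nNOS drought, against 7.41 and 7.31 in WT drought, a difference of -1.05, while the control groups differed by -0.14. SEN1 differed by -0.96 after drought and 0.12 in watered plants. In each of these genes both nNOS drought arrays lay outside the range of the other 6 arrays, as they did above that range in 5.84% and below it in 5.69% of all probe sets.

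Short genes fell more than long ones, in both genotypes. The length of the annotated gene was known for 13217 nuclear genes that the platform annotation names, and a check over all 22746 probe sets is void, since fewer than 80% have a length. Across those genes, which are not independent replicates, the Spearman rho of length with the log2 fold change was 0.26 in nNOS transgenic plants, against 0.28 in the WT. Genes of 500 to 1000 bases had a median log2 fold change of -0.17 in nNOS transgenic plants, against -0.16 in the WT, and 4.01% of them were called lower in nNOS transgenic plants. Genes of 3000 to 4000 bases had a median of 0.04 and 0.03 in the same order, and 0.106% of them were called lower. A length was known for 411 of the 447 (91.9%), and the median was 2130 bases for the rises and 1180 bases for the falls, plastid genes included. Among nuclear genes named by the platform annotation, the median was 2160 bases for the rises and 1040 for the falls. Over all 13217 nuclear genes it was 2110, so that the falls stood apart in length and the rises lay near the median. SAUR, defensin and lipid transfer-like genes are short, and the GAPDH measure of RNA quality given above also set the drought arrays of both genotypes apart from the control arrays. The part of length and RNA quality in the falls was not tested.

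**Figure D5:**
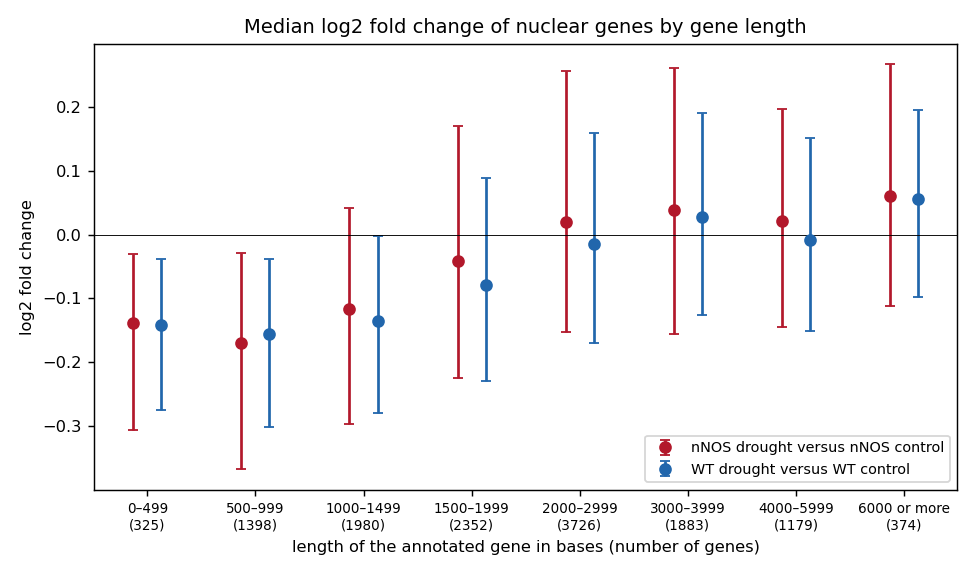
Median log2 fold change after drought (vertical axis, points) of nuclear genes named in the platform annotation, by length of the gene (horizontal axis), for nNOS transgenic plants and the WT, with bars for the range between the first and the last quartile of genes. Genes of 500 to 1000 bases had a median of -0.17 in nNOS transgenic plants, against -0.16 in the WT, and the longest genes had 0.06 and 0.06.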

How the data were processed

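RNA of leaves of 4 groups, 2 arrays each, was measured on Affymetrix ATH1 arrays. The authors read the signals out in Affymetrix Command Console, then used affylmGUI in R, and the deposited values are their normalized log2 signals, whose normalization and probe summarization are not given in the sources used here. The 8 arrays were fitted in limma 3.58.1 (R 4.3.3) with a mean for each of the 4 groups, leaving 4 residual degrees of freedom, with eBayes moderation, and p-values were Benjamini-Hochberg adjusted over 22810 probe sets, after which 64 Affymetrix controls were left out. A call needed an adjusted p of 0.05 or less and a change of 1 or more, in size, in mean log2 signal. With 2 arrays against 2, an exact permutation test cannot go below p = 0.333 (two-sided), so limma was used. Of the called probe sets, 234 were named by the platform annotation, 188 from the annotation columns of the study's list of called genes, and 25 match several genes. Functional classes come from that list, which holds only genes called in any of the study's comparisons and so gives no background. Named genes were the 20 largest rises and falls, up to 4 members of each list, up to 3 probe sets per direction of each class with at least 5 calls, and the 5 largest differences between responses in each direction. Lists needed 3 measured genes, with the brightest probe set per gene. The members, lists and tests were chosen with earlier results of these data known. The procedure was tested on simulated data. The number of arrays limits the precision.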

Additional observations from a re-analysis of the deposited data

Results flagged for a closer look

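The drought response differed between the genotypes, by a limma test of the difference (nNOS minus WT) with an adjusted p of 0.05 or less and a size of 1 or more, for 170 probe sets. Among the genes named by rule, it did so for 39, of which 23 had the lower response in nNOS transgenic plants. The difference was -2.23 for PDF1.4, -1.84 for AT5G64190, -1.83 for AT4G12490, -1.82 for the transcription factor gene UPB1, -1.81 for AT4G12500, -1.77 for EARLI1, -1.62 for AT5G51390, -1.53 for AT2G41800 and -1.39 for the ribonuclease gene RNS1. It was -1.35 for CBF2, -1.32 for CBF1, -1.26 for SAUR63, -1.21 for AT1G24575, -1.17 for PIT1, -1.15 for AT4G22620, -1.08 for SEN1 and for AT4G17470, and -1.07 for AT3G28310. It was -1.06 for SAUR23, -1.05 for AT2G17740, -1.04 for IAA29, -1.02 for RCI2B and -1.01 for AT2G21200.

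The other 16 had the higher response in nNOS transgenic plants. The plastid genes ndhK, ycf4, ndhA, cemA, rps2, psbH, clpP and rpl14 had differences of 1.9, 1.83, 1.77, 1.71, 1.55, 1.28, 1.2 and 1.05 in that order. AT5G51440 had 1.73, AT2G21640 1.52, the glutathione transferase gene GSTF12 1.48, the protein phosphatase gene AT3G12620 1.17, GAS41 and the dihydroflavonol reductase gene DFR 1.1 each, and AT2G04070 1.09. AT1G66850, a lipid transfer-like gene, had the largest value of the 39, 2.80. It had 4.39 and 4.47 in nNOS drought, against 3.62 and 3.69 in nNOS control, and 5.11 and 5.21 in WT drought, against 7.06 and 7.32 in WT control, so that it rose by 0.77 in nNOS transgenic plants and fell by 2.03 in the WT. It is on the list of tapetum markers, of which the other 3 measured genes lay between 1.72 and 3.56 on the 8 arrays. Among these, ATA27 had 2.43 and 2.21 in WT drought, against 3.56 and 3.22 in WT control. Its log2 fold change was -1.07 in the WT, against -0.01 in nNOS transgenic plants. The difference of 1.06 did not pass the limma adjusted p (0.0626), and these signals were low.

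Control probe sets that enter no comparison of genes were higher on the nNOS control arrays than on the WT control arrays. The mean difference was 2.07 for the poly-A controls and 0.95 for the hybridization controls, and the probe set for 25S rRNA was higher by 1.1. The part of these values in the differences between responses was not tested.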

How the results depend on the processing

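Without a fold threshold, the counts were 5654 for nNOS drought versus nNOS control, 2475 for WT drought versus WT control and 827 for the difference between the responses, and at an adjusted p of at most 0.01 the difference was called for 93. Leaving out each array in turn gave 379 to 678 calls for nNOS drought versus nNOS control, 153 to 177 for the WT and 88 to 287 for the difference. The lists held 85 to 124 changed members, against 117 in all arrays, and the poly-A controls differed by -2.54 to -2.15. The poly-A difference was -2.62 with the 3 Trp probe sets left out, which was decided after seeing the data. The replicate numbers did not pair the samples (correlation of deviations 0.068 between nNOS drought and nNOS control). With the replicate number as a block, the counts were 447 for nNOS drought versus nNOS control, 154 for the WT, 172 for the difference and 118 for the list members. Other normalizations, a signal filter, array weights, a fit to the 4 arrays, trended moderation and the omission of probe sets shared by several genes kept each count within 1.5 times, although the fit to 4 arrays gives no difference between the responses. Of 2411 values of the 187 named genes under alternatives, 2338 kept their direction and side of the threshold, 57 no longer passed, 16 newly passed and none was reversed, and of 306 list medians 282 moved by less than the spread and 24 by more. With 2 arrays per group, leaving out an array leaves 1, which is assumed to vary like the other groups. Low signals limit the size of some changes, since the mean was under 5 in nNOS drought for 75 of the 263 falls and in nNOS control for 62 of the 184 rises.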

Other observations

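Some genes of starch turnover were higher in nNOS drought. PWD, which phosphorylates starch before it is broken down, had 8.37 and 8.43 in nNOS drought, against 7.66 and 7.26 in nNOS control, and rose by 0.94. DPE1, which rearranges the short glucans that starch breakdown leaves, had 7.59 and 7.62 in nNOS drought, against 7.03 and 6.74 in nNOS control, and rose by 0.72. PWD and DPE1 passed the limma adjusted p, with 0.000603 and 0.00138, but not the fold threshold. Of the 6 measured genes of sucrose and starch metabolism, 3 were higher and none was lower by limma (4 and none at an unadjusted p under 0.05), with a median of 0.41 in nNOS transgenic plants, against 0.49 in the WT. SBE2.2, ATSPS4F and APL3 had -0.03, 0.41 and 0.41 without passing the test. The 3 genes of the circadian clock list that the platform annotation names were higher, GI, which acts in the evening, by 0.38, AT4G33980 by 0.54 and COR27, which cold also induces, by 0.66, against 0.42, -0.01 and 0.17 in the WT. COL1, which could be named only from the study's list of called genes, fell by 1.01 (limma adjusted p = 0.000202). Of the differences between genotypes in these 3 responses, that of COR27 had the lowest limma adjusted p, 0.0804.

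The flavonoid gene GSTF12, which is needed to store anthocyanins in the vacuole, had 6.29 and 6.20 in nNOS drought, against 4.90 and 5.06 in nNOS control, and 6.19 and 6.12 in WT drought, against 6.38 and 6.36 in WT control. The nNOS control arrays were thus the low ones. Of 5 measured genes of anthocyanin and flavonoid synthesis, a count without GSTF12, 2 were higher and none was lower by limma (3 and none at an unadjusted p under 0.05). The responses of glutaredoxins of the CC type differed between genotypes by the limma adjusted p for 4 of 18 genes, against 3.64% of all probe sets. All 4 had the higher value in nNOS transgenic plants, a direction in which 1.89% of all probe sets passed. AT1G06830, AT4G15680 and AT3G62930 fell less there than in the WT, and AT2G30540 rose by 0.54, against a value of -0.27 in the WT. AT4G15680 had 5.64 and 5.60 in nNOS drought, against 5.99 and 6.30 in nNOS control, and 5.15 and 5.35 in WT drought, against 6.93 and 7.001 in WT control, so that its log2 fold change was -0.52 in nNOS transgenic plants, against -1.72 in the WT. The nitrate response gene LBD38, a repressor of genes that nitrogen induces, had 8.61 and 8.67 in nNOS drought, against 10.4 and 10.5 in nNOS control, and fell by 1.81, whereas the 4 genes of that list named by the platform annotation had values of -0.22 to 0.02 and did not pass by limma, also at an unadjusted p under 0.05.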
